A study of Mus musculus with 15 samples.

Results

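Microglia taken 7 days after a single dose of ATV:4D9 were compared with microglia taken 1 day after the same dose. All cells of the 3 ATV:4D9 day 7 mice and the 3 ATV:4D9 day 1 mice were used, which was 6 of the 15 mice of the series and 39748 of its 102043 cells. ATV:4D9 is an antibody against mouse TREM2 on an antibody transport vehicle (ATV), an Fc that binds the transferrin receptor and carries Fc mutations (LALA) that weaken binding to Fc gamma receptors. The control ATV:RSV has a binding arm against a viral protein on the same vehicle. All mice, controls included, were males of 3.5 months on a C57BL/6J background with the hTfR knock-in, in which human transferrin receptor sequence replaces part of the mouse Tfrc gene, and all received 10 mg/kg once. Cells came from the cortex and hippocampus of 1 hemibrain per mouse and were enriched with CD45 MicroBeads. The 3 ATV:RSV mice were sampled at day 1 and served as the reference level. There was no ATV:RSV group at day 7, so in the comparison of day 7 with ATV:RSV the antibody and the day of sampling cannot be told apart. Each mouse was sampled once, and a gene that rose or fell between the days did so between groups of mice.

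Microglia are the resident macrophages of the brain, and in the healthy brain they divide rarely and express a set of sensing and cell contact genes known as homeostatic. TREM2 is a lipid-binding receptor that signals through the adaptor TYROBP and the kinase SYK, and it is needed for the shift of microglia to the disease-associated state, in which lipid-handling and lysosomal genes such as Apoe, Lpl and Cst7 are raised. Entry into the cell cycle, type I interferon target genes and energy metabolism are separate programmes that an activated microglial cell can also switch on.

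The 3 day 1 mice gave 7118, 7343 and 5998 cells and the 3 day 7 mice 6026, 5667 and 7596 cells. Total unique molecular identifier (UMI) counts per mouse ran from 53244126 to 70307384 at day 1 and from 32341960 to 50730013 at day 7. At least 3 of the 10 microglia markers had a UMI in 99.87% to 99.97% of the cells of these 6 mice. The 7 border macrophage markers summed to 18.0 to 26.1 UMIs per 1e6 of the library's unscaled total at day 1 and to 14.8 to 15.6 at day 7. Cells with at least 3 of them, not thinned to a common depth, made up 0.843% to 1.23% and 0.211% to 0.371%. Values in CPM are UMIs per 1e6 of the library's TMM-scaled total. The neutrophil markers S100a8 and S100a9 were high in day 7 replicate 3 alone, at 53.4 and 62.9 CPM, against 1.36 to 3.82 CPM in the other day 7 mice, while at most 0.0263% of day 7 cells had 3 of the 6 neutrophil markers. ATV:RSV replicate 1 stood above the other ATV:RSV mice for interferon and MHC class I genes. Between 5 and 22 cell barcodes were shared by any 2 of the 6 libraries.

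The median number of UMIs per cell was 8995.5, 8343 and 8201.5 in the day 1 mice and 4894, 4694 and 6020 in the day 7 mice. The groups did not overlap, and the day 7 mean of 5202.7 ± 714.9 (SD, n = 3) was 61.1% of the day 1 mean of 8513.3 ± 423.5 (exact permutation test, two-sided, p = 0.1, the smallest p that 3 mice against 3 can give). The difference was present within each batch, at -4101.5, -3649 and -2181.5 UMIs. The ATV:RSV mean was 5316.7 ± 395.6 UMIs per cell. Cells were then thinned at random to 3385 UMIs, and cells below that depth were left out. Those were 3.93%, 4.77% and 5.79% of cells in the day 1 mice and 17.4%, 16.9% and 6.92% in the day 7 mice. After thinning, the median number of genes detected per cell was 1486 ± 13.5 at day 1, 1462 ± 9.64 at day 7 and 1532 ± 5.20 in ATV:RSV (day 7 against day 1, exact permutation p = 0.2). CPM values are relative to the scaled total of each library, so this fall in UMIs per cell is not in them. How far sequencing depth of the libraries enters UMIs per cell was not tested. In sums over cells, fewer cells that express a gene and less RNA of it per cell cannot be told apart.

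For the test, the UMIs of a mouse were added up by gene and fitted with limma-voom, with TMM scaling and Benjamini-Hochberg adjustment over 14260 genes. From day 1 to day 7, 4703 genes rose (33.0% of those tested) and 4835 fell (33.9%) at an adjusted p under 0.05. Falls were steeper than rises, with 1706 genes lower by at least 2-fold against 892 higher, and 570 lower by at least 4-fold against 92 higher. The split depended on the scaling. Scaled to library size alone, 5908 genes rose and 3971 fell, with the median gene shifted by 0.17 on the log2 scale. Per cell, with the number of cells as the offset, 1274 rose and 7741 fell, with the median gene shifted by -0.44. With TMM scaling the median gene shifted by 0.02, and the changes below are relative to it.

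What was left at day 7 was measured against the 3 ATV:RSV mice. There, 426 genes were higher at day 7 (2.99%) and 142 were lower (0.996%), and for 9178 genes (64.4%) the 95% interval of the log2 difference lay within 0.5 of 0, which is called near the control below. With the batch as a block, which pairs the mice, 677 were higher and 337 lower. Library size alone gave 317 higher and 882 lower, with the median gene at -0.10, and the number of cells as the offset 159 higher and 149 lower, with the median gene at -0.11. The day 7 mice enter both comparisons, so their values are set side by side and were not tested against each other.

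**Figure D1:**
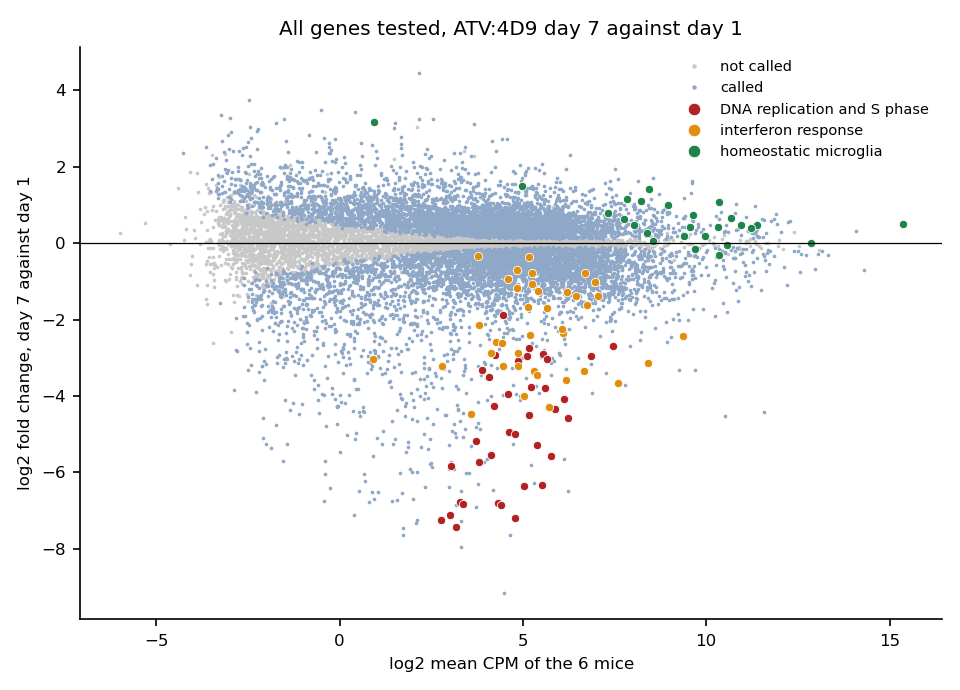
Log2 fold change of each of 14260 genes from day 1 to day 7 (vertical axis) against its log2 mean CPM over the 6 mice (horizontal axis), with members of 3 gene lists coloured. Replication and interferon genes lie below 0 throughout, and most homeostatic microglia genes lie above 0.

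Genes were followed in 27 lists of pathways and microglial programmes. Per-cell counts of a list from day 1 to day 7 stand beside 1274 rises and 7741 falls among all 14260 genes in that fit. Per-cell counts against ATV:RSV stand beside 159 higher and 149 lower. The lists split into those in which nearly every member fell, those in which most members rose, and those in which members moved in both directions. The plot of summed levels shows lists of the first kind raised above ATV:RSV at day 1 and closer to it at day 7. Not all were back at its level. The interferon sums stayed above every ATV:RSV mouse, and the mitosis mean lay below the ATV:RSV mean.

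**Figure D2:**
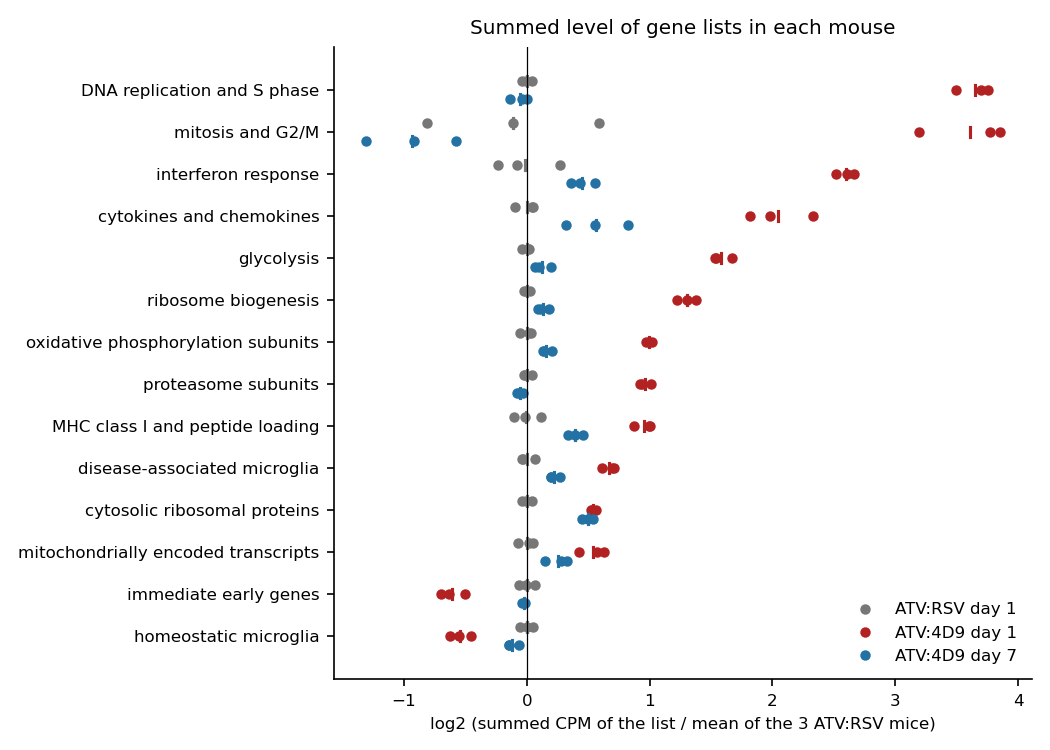
Summed CPM of 14 gene lists in each mouse, as log2 over the mean of the 3 ATV:RSV mice (points are mice, ticks are group means). Replication, interferon, cytokine and glycolysis sums were raised at day 1 and lay within 1 log2 unit of ATV:RSV at day 7, mitosis sums lay below the ATV:RSV mean at day 7, and cytosolic ribosomal protein sums stayed raised in all 3 day 7 mice.

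**Figure D3:**
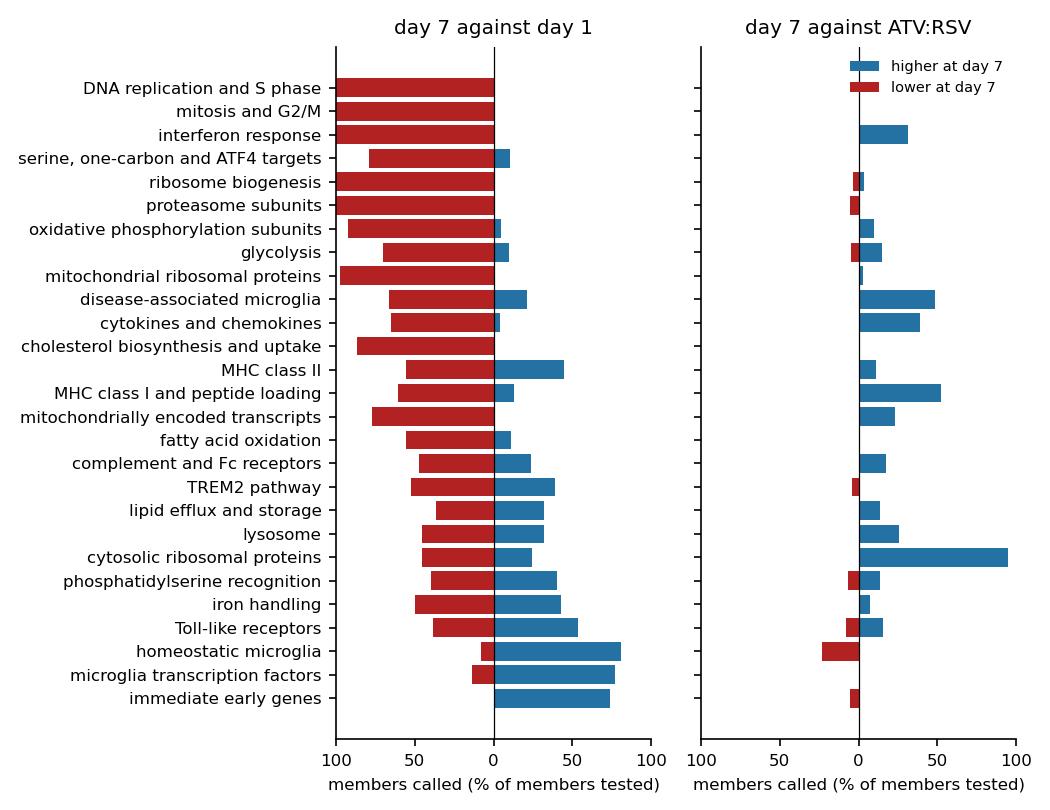
Percent of the tested members of each of 27 lists that were called higher or lower, for day 7 against day 1 and for day 7 against ATV:RSV. In 5 lists (replication, mitosis, interferon, ribosome biogenesis and proteasome) every member fell from day 1 to day 7, and against ATV:RSV the cytosolic ribosomal proteins stand out with 77 of 81 higher.

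Interferon response genes, which encode antiviral effectors and the factors that induce them, all fell. Each of 38 members was lower at day 7, by a median of 2.39 on the log2 scale, where 33.9% of all genes were lower. Their summed level was 4655, 4384 and 4856 CPM in the day 1 mice, 1125, 978 and 1029 CPM in the day 7 mice and 921, 647 and 722 CPM in the ATV:RSV mice. Day 7 was therefore 4.43-fold below day 1 and lay above every ATV:RSV mouse, of which replicate 1 was the highest. The promoters of 3 of the genes are shown because these genes fell together and share a motif of the interferon-stimulated response element (ISRE). They span 250 bases before to 50 after the start (RefSeq, GRCm38.p6), and capitals mark matches to GAAANNGAAA on either strand, which overlap each other in Isg15. Isg15 (chr4:156200769-156201068, minus strand) encodes a ubiquitin-like modifier, Rsad2 (chr12:26456403-26456702, minus strand) the antiviral enzyme viperin, and Ifit3 (chr19:34583279-34583578, plus strand) an RNA-sensing cofactor.
Isg15: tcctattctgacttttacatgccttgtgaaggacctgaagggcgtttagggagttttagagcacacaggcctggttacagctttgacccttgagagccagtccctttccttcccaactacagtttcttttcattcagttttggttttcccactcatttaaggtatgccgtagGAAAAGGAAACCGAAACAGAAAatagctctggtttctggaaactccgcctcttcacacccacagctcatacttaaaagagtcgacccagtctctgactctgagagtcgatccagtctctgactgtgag
Rsad2: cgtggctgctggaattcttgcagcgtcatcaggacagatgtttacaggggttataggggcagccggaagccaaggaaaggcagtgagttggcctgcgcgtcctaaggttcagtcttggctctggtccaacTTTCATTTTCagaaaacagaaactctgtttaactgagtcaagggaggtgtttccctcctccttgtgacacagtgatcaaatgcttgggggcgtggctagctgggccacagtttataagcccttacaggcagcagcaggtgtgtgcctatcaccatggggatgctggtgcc
Ifit3: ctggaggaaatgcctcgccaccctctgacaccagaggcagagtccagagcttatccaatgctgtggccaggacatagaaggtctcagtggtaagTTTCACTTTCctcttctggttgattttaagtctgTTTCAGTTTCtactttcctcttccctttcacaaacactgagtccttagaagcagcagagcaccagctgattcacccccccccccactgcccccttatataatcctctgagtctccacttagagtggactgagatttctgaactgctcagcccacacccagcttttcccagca
The motif was found in 17 of the 30 interferon list members with a promoter in the table (56.7%), in 3.93% of the 10636 tested genes with a promoter and in 3.44% of all 32851 promoters. Oasl1, the interferon gene with the largest fall, had no match in its window.

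Isg15 stood at 309, 373 and 392 CPM at day 1 and at 32.1, 24.5 and 27.7 CPM at day 7, with 27, 12.5 and 14.7 CPM in ATV:RSV. It fell by 3.67 (SE 0.17) on the log2 scale, and the day 7 mice overlapped ATV:RSV through its replicate 1 (log2 difference 0.69, limma-voom adjusted p = 0.073). Without that mouse Isg15 was called higher at day 7 than in ATV:RSV. Rsad2 fell from 99.3 ± 8.05 to 5.16 ± 0.569 CPM (n = 3 each) and Ifit3 from 184 ± 8.86 to 18.2 ± 3.16 CPM. Ifitm3, a membrane protein that blocks virus entry, was at 644, 524 and 662 CPM at day 1 and at 75.6, 63.6 and 68.6 CPM at day 7. Its fall left it above all 3 ATV:RSV mice (43, 15.1 and 20.6 CPM, log2 difference 1.52, SE 0.25, adjusted p = 0.00136, and 1.97 without ATV:RSV replicate 1). In all, 12 of the 38 interferon genes were still higher at day 7 than in ATV:RSV, where 2.99% of all genes were, and 11 were near the control, where 64.4% were. Those 12 included the cytosolic DNA sensor family member Ifi204 (log2 difference 1.54), Ifi27l2a (1.66), the RNA sensors Oasl2 (1.32) and Oas1a (1.23) and the sensor Zbp1 (0.90). The count rested on single mice. It was 23 without ATV:RSV replicate 1, 4 without ATV:RSV replicate 2, 5 without ATV:RSV replicate 3, 6 without day 7 replicate 1, 7 without day 7 replicate 3 and 6 per cell.

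Replication genes had the lowest median of the 27 lists. All 38 members were lower at day 7, by a median of 4.76 on the log2 scale, where 33.9% of all genes were lower. Among them were the helicase subunits Mcm2 to Mcm7, the polymerase clamp Pcna and the nucleotide enzymes Rrm1 and Rrm2. Their summed level was 2234, 2671 and 2578 CPM at day 1, 180, 198 and 193 CPM at day 7 and 204, 197 and 193 CPM in ATV:RSV. The day 7 mean thus lay 13.1-fold below day 1, and the day 7 and ATV:RSV mice overlapped. Promoters of Mcm5 (chr8:75109259-75109558, plus strand) and Mcm6 (chr1:128359656-128359955, minus strand), both replicative helicase subunits, and of Uhrf1 (chr17:56303087-56303386, plus strand), which keeps DNA methylation through replication, are shown with matches to TTTNGCGC, a motif of E2F factors, in capitals (RefSeq, GRCm38.p6). The first 2 were chosen because they hold the motif, with overlapping matches on both strands. Uhrf1, whose fall was larger, has no match in the first of its 2 listed promoters. Rrm2 and Cdc6, whose falls were also larger than those of Mcm5 and Mcm6, have no match either and are not shown.
Mcm5: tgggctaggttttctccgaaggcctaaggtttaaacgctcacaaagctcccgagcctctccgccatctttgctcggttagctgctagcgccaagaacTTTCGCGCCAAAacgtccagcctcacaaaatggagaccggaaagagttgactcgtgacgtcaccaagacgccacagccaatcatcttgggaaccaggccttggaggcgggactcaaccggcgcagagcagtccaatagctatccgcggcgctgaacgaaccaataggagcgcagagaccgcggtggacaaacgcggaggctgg
Mcm6: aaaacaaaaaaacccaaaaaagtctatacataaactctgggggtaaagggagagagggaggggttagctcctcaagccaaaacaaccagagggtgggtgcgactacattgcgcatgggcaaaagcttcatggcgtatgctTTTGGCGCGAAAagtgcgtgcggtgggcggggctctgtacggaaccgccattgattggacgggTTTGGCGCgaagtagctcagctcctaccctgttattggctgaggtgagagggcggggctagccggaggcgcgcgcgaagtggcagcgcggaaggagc
Uhrf1: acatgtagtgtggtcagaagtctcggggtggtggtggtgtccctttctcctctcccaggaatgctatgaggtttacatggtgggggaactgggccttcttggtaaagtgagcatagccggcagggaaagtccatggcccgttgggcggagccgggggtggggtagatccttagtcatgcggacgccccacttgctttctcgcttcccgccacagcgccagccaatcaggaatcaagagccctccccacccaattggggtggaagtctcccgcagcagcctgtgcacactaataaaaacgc
The E2F motif was found in 9 of the 32 replication list members with a promoter (28.1%). It was found in 2.81% of the 10636 tested genes with a promoter and in 1.38% of all 32851 promoters. None of the 30 interferon genes with a promoter held it, and none of the 32 replication genes held the ISRE motif.

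Pcna stood at 284, 322 and 316 CPM at day 1 and at 44.1, 50.2 and 47.8 CPM at day 7. Its fall of 2.70 (SE 0.06) on the log2 scale brought it to the ATV:RSV level of 52.1, 50.2 and 47.5 CPM. Mcm5 went from 99.1, 113 and 110 CPM to 2.49, 2.21 and 2.06 CPM, a 47.9-fold lower mean, with ATV:RSV at 2.58 ± 0.440 CPM. Mcm6 was at 137, 150 and 147 CPM at day 1 and at 5.72, 6.18 and 6.06 CPM at day 7. E2f1, which drives entry into S phase, fell by 6.34 (SE 0.21), from 3697, 4160 and 3163 UMIs per mouse to 34, 17 and 44 UMIs. Uhrf1 fell by 7.20 (SE 0.40), from 2963, 3949 and 2529 UMIs to 10, 16 and 17 UMIs, and Hells, a chromatin remodeller of dividing cells, and Pclaf, a clamp-associated protein, fell by 6.33 and 5.81. Against ATV:RSV, limma-voom called none of the 38 genes in either direction, where it called 2.99% of all genes higher and 0.996% lower. At an unadjusted p under 0.05, 1 was higher and 2 were lower, and edgeR and DESeq2 each called 1 higher. For 16 the interval lay near the control, and for the others it was wider than that or shifted.

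Mitotic genes fell in the same way. All 26 were lower at day 7 (median 4.43 on the log2 scale, where 33.9% of all genes were lower), and their sum of 320, 507 and 479 CPM at day 1 became 19, 14 and 23 CPM at day 7. Without the cells that had a UMI of the members Mki67 or Top2a, 18 of the 22 genes still tested were lower, by a median of 2.72, and against ATV:RSV 3 were higher and the median difference was 0.14. The ATV:RSV mice, at 53, 20 and 32 CPM, overlapped the day 7 mice through replicate 2, and the median log2 difference over the 26 genes was -1.12. Limma-voom called no member against ATV:RSV in either direction, where it called 2.99% of all genes higher and 0.996% lower. At an unadjusted p under 0.05, 1 was higher and 10 were lower, edgeR called 1 higher and 3 lower, and DESeq2 1 higher and 8 lower. Mki67, a marker of cycling cells, had 2072, 3765 and 2577 UMIs in the day 1 mice and 10, 1 and 34 in the day 7 mice, against 188, 47 and 116 in ATV:RSV. Top2a, the topoisomerase of dividing chromosomes, went from 56.4, 90.4 and 84.9 CPM to 0.708, 0.715 and 1.51 CPM.

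Counted per cell after thinning to 3385 UMIs, a Mki67 UMI was found in 5.35%, 9.61% and 8.25% of day 1 cells and in 0.0402%, 0% and 0.0707% of day 7 cells. The share of 0, in replicate 2, was 0 of 4710 thinned cells, which allows a share of up to 0.0637% by counting error alone. The mean of 7.74% ± 2.17 became 0.0370% ± 0.0355 (SD, n = 3; exact permutation p = 0.1, the smallest possible), and the differences within batches were -5.31, -9.61 and -8.18 percentage points. ATV:RSV was at 0.192% ± 0.118, above every day 7 mouse (exact permutation p = 0.1). Without thinning the day 1 and day 7 shares were 13.1% and 0.0599%. The deposited cells were nearly all microglia, so no other cell type was at hand to measure the share that free RNA gives. Isg15 was detected in 30.2% ± 2.05 of thinned day 1 cells and in 5.56% ± 0.230 of thinned day 7 cells, with 3.96% ± 0.683 in ATV:RSV.

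**Figure D4:**
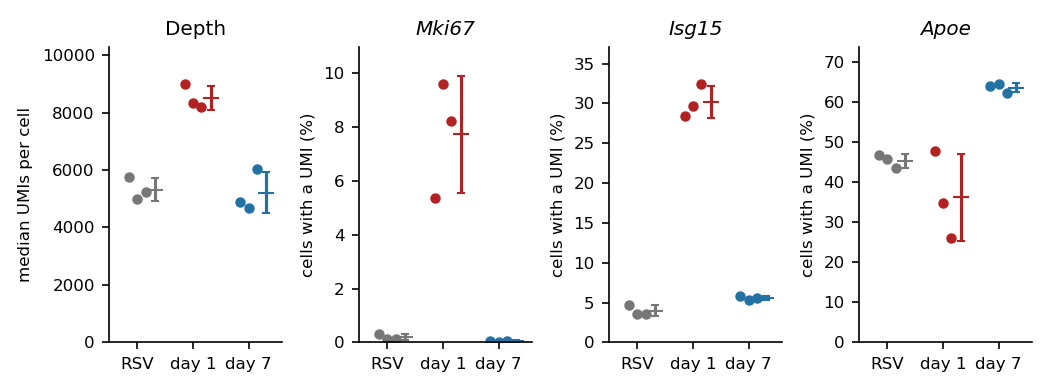
Values per mouse (points) with mean ± SD (bars) for median UMIs per cell and for the percent of cells, thinned to 3385 UMIs, with a Mki67, Isg15 or Apoe UMI, where RSV stands for ATV:RSV. The day 1 and day 7 mice do not overlap in any of the 4 panels, and only for Apoe are the day 7 mice the highest group.

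Cytokines and chemokines split into genes that had fallen to the ATV:RSV level and genes that had not. Of 23 tested members, 15 fell and 1 rose from day 1 to day 7 (33.9% and 33.0% of all genes), and 9 were higher at day 7 than in ATV:RSV (2.99% of all genes). Tnf, the inflammatory cytokine, stood at 1333, 1529 and 1670 CPM at day 1 and at 104, 223 and 143 CPM at day 7. It fell by 3.33 (SE 0.25) on the log2 scale and overlapped ATV:RSV (137, 174 and 109 CPM, log2 difference 0.12). Ccl12, a monocyte chemoattractant, fell from 5190, 5123 and 7154 CPM to 279, 277 and 251 CPM, above its ATV:RSV values of 216, 164 and 180 CPM (log2 difference 0.54, adjusted p = 0.077, and 0.033 with the batch as a block). Cxcl10, an interferon-induced chemokine for T cells, fell from 2123, 2610 and 3680 CPM to 95, 144 and 119 CPM and stayed above ATV:RSV (69.6, 42.3 and 40.8 CPM, log2 difference 1.25, adjusted p = 0.0035). Cxcl11, another ligand of the same receptor, fell by 6.48, from 134, 147 and 165 CPM to 1.64, 3.76 and 0.931 CPM. Il12b and Ccl7 fell by 6.48 and 5.65. The 1 gene that rose was Tgfb1, which maintains microglial identity, by 0.34 (SE 0.05), a call lost per cell (-0.12, adjusted p = 0.162), where 18 members fell and none rose.

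Il1b, Ccl5 and the macrophage inflammatory proteins stayed higher. Il1b, the inflammasome cytokine, was at 272, 341 and 425 CPM at day 1 and at 244, 396 and 313 CPM at day 7. The groups overlapped (log2 difference -0.13, 95% interval -0.73 to 0.48), and both were above the ATV:RSV mice at 119, 85.9 and 66 CPM (day 7 log2 difference 1.82, SE 0.29, adjusted p = 0.00128). Ccl3 and Ccl4, chemokines of activated macrophages, fell by 0.75 (SE 0.21) and 1.10 (SE 0.20) but were still above ATV:RSV by 0.87 and 0.89. Il1a fell by 0.60 and was above ATV:RSV by 0.84. The calls of Ccl3, Ccl4 and Il1a against ATV:RSV were lost when ATV:RSV replicate 2 or 3 or day 7 replicate 2 or 3 was left out, and the list then had 4 genes called in place of 9. Ccl5 was at 75.3, 70.9 and 70.2 CPM at day 1 and at 41, 55.9 and 38.5 CPM at day 7, and its fall of 0.71 was not called (95% interval -1.70 to 0.28). ATV:RSV replicate 1 had 39.8 CPM of Ccl5 and the other 2 had 3.76 and 1.93 CPM, and the call against ATV:RSV (2.62, adjusted p = 0.043) was not made by edgeR (adjusted p = 0.305).

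Ribosome biogenesis, proteasome and mitochondrial ribosome genes fell nearly throughout. All 28 ribosome biogenesis genes, which act in the nucleolus, were lower at day 7 by a median of 1.12 on the log2 scale, where 33.9% of all genes were lower. All 38 tested proteasome subunits were lower (median 1.05) and 76 of 78 mitochondrial ribosomal proteins (median 0.78). The day 7 sums were 1502 ± 50.6 CPM for biogenesis, 3352 ± 54.3 CPM for the proteasome and 3278 ± 44.8 CPM for mitochondrial ribosomal proteins (SD, n = 3 each). ATV:RSV had means of 1371, 3487 and 3175 CPM. The biogenesis sums at day 7 lay above every ATV:RSV mouse (1461 to 1558 against 1353 to 1397 CPM). The proteasome sums lay below every ATV:RSV mouse (3307 to 3412 against 3433 to 3582 CPM), and the mitochondrial ribosomal sums overlapped. At day 7, 25 of 28, 37 of 38 and 78 of 78 of their members were near the control, beside 64.4% of all genes. Called lower than in ATV:RSV were 2 proteasome subunits (0.996% of all genes), with 0 to 1 when any 1 mouse was left out and 25 with library size alone. At an unadjusted p under 0.05, 17 were lower and 2 higher. Nhp2, a component of the particles that modify ribosomal RNA, went from 143, 160 and 158 CPM to 36.7, 40.8 and 42.4 CPM, and Psmd14, the deubiquitinase of the proteasome lid, from 102, 107 and 109 CPM to 35.9, 39 and 38.8 CPM. Mrpl18 and Mrpl12 of the mitochondrial ribosome fell by 1.58 and 1.57.

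Energy metabolism showed the same order. In glycolysis 14 of 20 genes fell and 2 rose (median -0.84, with 33.9% and 33.0% of all genes), while per cell 19 fell and 1 rose (median -1.29). The sum of 5598, 5616 and 6153 CPM at day 1 became 2020, 2073 and 2213 CPM at day 7, with 1961, 1886 and 1949 CPM in ATV:RSV. Gapdh fell from 1832, 1818 and 2068 CPM to 470, 483 and 564 CPM, and Pkm, pyruvate kinase, by 2.05 (SE 0.05). Pgk1, phosphoglycerate kinase, fell by 2.01 and was still 0.27 above ATV:RSV (adjusted p = 0.021), a call lost with library size alone, per cell, and without ATV:RSV replicate 1 or 2 or day 7 replicate 2 or 3. Pfkfb4, which sets the level of a glycolytic activator, rose by 0.92 (SE 0.08). The other riser was Hk1, hexokinase, at 0.20, which was lower, at -0.25, per cell. Of 83 tested subunits of oxidative phosphorylation 77 fell and 4 rose (median -0.90), and 74 were near the control, beside 64.4% of all genes. Their sum at day 7, 12728, 12134 and 12184 CPM, lay above every ATV:RSV mouse (11346, 10642 and 11216 CPM). None was called lower than in ATV:RSV and 8 were called higher (2.99% of all genes), with 16 higher when the batch was a block, 13 with DESeq2, 2 per cell, and 6 higher and 2 lower with library size alone. Cox7a2l went the other way, from 236, 251 and 248 CPM to 601, 608 and 588 CPM, above ATV:RSV at 410, 456 and 435 CPM. Of the 13 transcripts of the mitochondrial genome 10 fell (median -0.30), with 6 lower for library size alone (median -0.15) and 13 per cell (median -0.76), led by mt-Nd1 and mt-Nd2 at -0.73 and -0.55, and 3 of them, mt-Co1, mt-Co2 and mt-Nd6, were called above ATV:RSV. That count was 1 to 4 when any 1 mouse was left out, 1 with library size alone, 7 with DESeq2, 6 with the batch as a block and 0 per cell.

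Supply pathways followed. Serine, one-carbon and ATF4 target genes fell in 15 of 19 cases, by a median of 1.47 on the log2 scale, where 33.9% of all genes fell and 33.0% rose. Mthfd2, a mitochondrial folate enzyme, went from 73, 77.6 and 81.7 CPM to 9.82, 11 and 19.9 CPM, and Asns, asparagine synthetase, fell by 2.93 (SE 0.36). Atf4 itself and Sesn2 rose by 0.25 and 0.33 in CPM, but per cell Atf4 was lower, at -0.21 (adjusted p = 0.049), and Sesn2 was not called (-0.14, adjusted p = 0.446). Cholesterol synthesis genes fell in 20 of 23 cases (median -0.62, and -1.07 per cell with all 23 lower), with Sqle, squalene epoxidase, at -2.87. Fatty acid oxidation genes moved least, with 10 of 18 lower, 2 higher and a median of -0.26 in CPM, and all 18 were near the control, beside 64.4% of all genes. Per cell 16 were lower and none higher, with a median of -0.72. Acadl fell by 0.93, Etfa by 0.86, and Acads rose by 0.63, a call lost per cell. Against ATV:RSV no member of these 3 lists was called by limma-voom or edgeR. Limma-voom called few genes there at all, 2.99% of all genes higher and 0.996% lower. At an unadjusted p under 0.05 the counts were 2 lower in the serine list, 1 higher in the cholesterol list and none in fatty acid oxidation, and DESeq2 called 1 gene, higher, in the serine list.

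**Figure D5:**
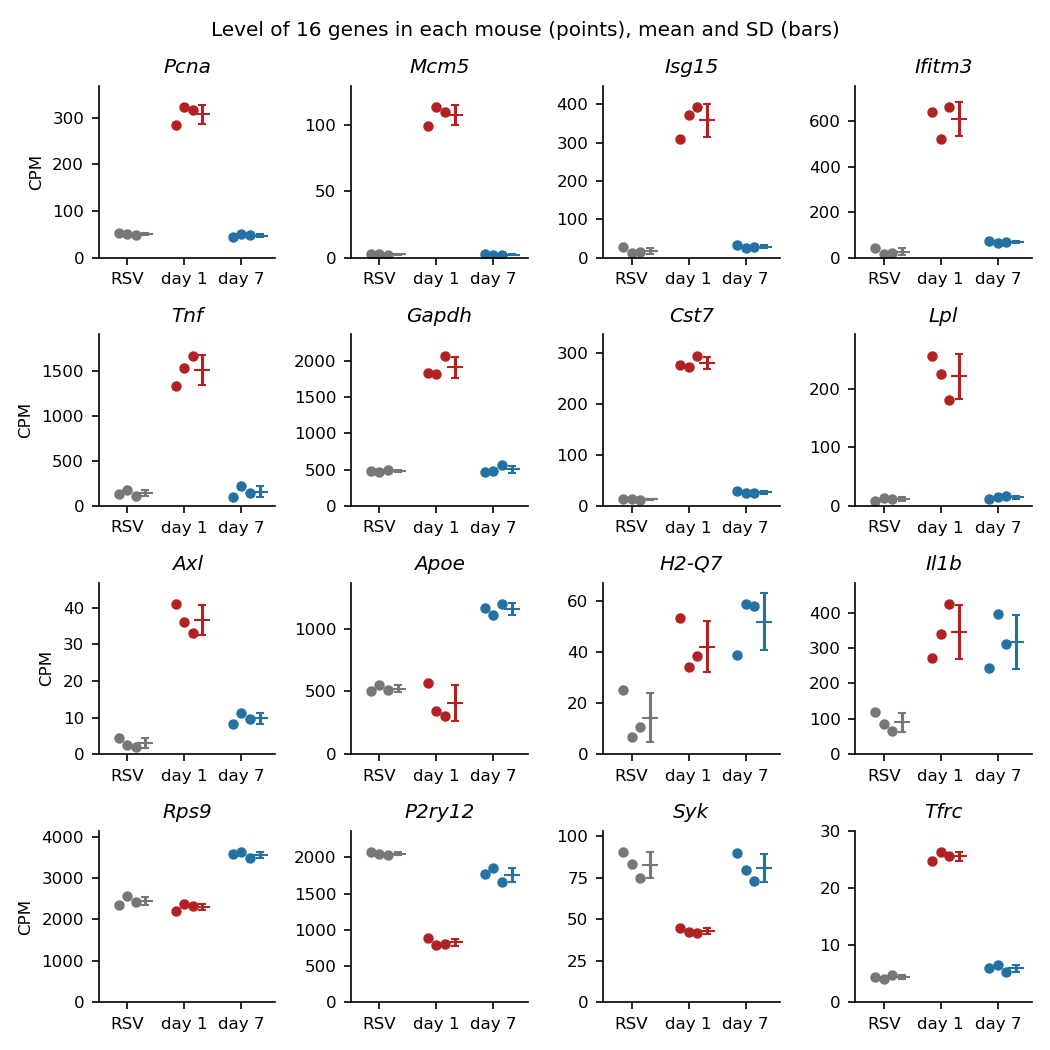
CPM per mouse (points) with mean ± SD (bars) of 16 genes in ATV:RSV, ATV:4D9 day 1 and ATV:4D9 day 7, on linear axes from 0. Pcna, Mcm5, Tnf, Gapdh and Lpl were at or near the ATV:RSV level at day 7, Ifitm3, Cst7 and Axl lay between the 2 others, Il1b and H2-Q7 stayed high, and Apoe and Rps9 were highest at day 7.

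Cytosolic ribosomal proteins stayed above ATV:RSV at day 7. Of 81 tested members, 20 rose and 37 fell from day 1 to day 7 with TMM scaling (median -0.11 on the log2 scale), beside 33.0% and 33.9% of all genes. With library size alone 29 rose and 22 fell (median 0.04), beside 5908 and 3971 of all 14260 genes. Per cell 1 rose and 65 fell (median -0.57), beside 1274 and 7741. The sum was 173628, 177060 and 172853 CPM at day 1, 174374, 169050 and 163874 CPM at day 7, and 123644, 119554 and 116663 CPM in ATV:RSV. Both days lay above every ATV:RSV mouse and overlapped each other. At day 7, 77 of 81 genes were above ATV:RSV, where 2.99% of all genes were, by a median of 0.48. The count stayed at 69 to 77 when any 1 mouse was left out and was 47 per cell. Only Rplp1, Rpl39l, Rpl7l1 and Rps27l were not called, and the last 3 are paralogs of ribosomal proteins. The genes did not move alike between the days. Rps9 rose from 2210, 2365 and 2318 CPM to 3569, 3623 and 3490 CPM (0.63, SE 0.04), with ATV:RSV at 2350, 2559 and 2430 CPM. Per cell its rise was 0.17 and not called. Rps27 rose by 1.02 (SE 0.15). Rps2 fell from 2369, 2420 and 2788 CPM to 984, 1066 and 1154 CPM and was still 0.32 above ATV:RSV. Zfas1, a non-coding RNA whose gene carries small nucleolar RNAs, rose from 38.8 ± 1.32 to 85.9 ± 6.17 CPM, with ATV:RSV at 43.2 ± 5.20 CPM.

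Disease-associated microglia genes fell in part. Of 33 tested members 22 fell and 7 rose (median -0.74 on the log2 scale), beside 33.9% and 33.0% of all genes. At day 7, 16 of 33 were above ATV:RSV, as were 2.99% of all genes, with 12 to 15 when any 1 mouse was left out. Per cell 26 fell and 1 rose, and 10 were above ATV:RSV. Cst7, a cystatin of lysosomes, stood at 276, 271 and 294 CPM at day 1 and at 29.1, 24.8 and 25.6 CPM at day 7. It fell by 3.41 (SE 0.07) and was still at 2 times its ATV:RSV level of 12.8, 12.7 and 12.3 CPM (log2 difference 1.07, SE 0.08, adjusted p = 1.49e-06). Axl, a receptor for phosphatidylserine-bound ligands, went from 41, 36.1 and 33 CPM to 8.35, 11.2 and 9.71 CPM, above ATV:RSV at 4.5, 2.39 and 2 CPM (log2 difference 1.76, SE 0.22). Itgax and Clec7a, surface receptors of the state, fell by 1.43 and 1.10 and were above ATV:RSV by 1.42 and 1.15. Lpl, lipoprotein lipase, fell by 3.92 (SE 0.22), from 256, 225 and 181 CPM to 12.3, 14.8 and 16.1 CPM, and was not distinguished from ATV:RSV (7.54, 14.1 and 12.1 CPM, 95% interval of the log2 difference -0.14 to 0.99). Ch25h, which makes 25-hydroxycholesterol, had 2313, 1761 and 2015 UMIs at day 1 and 7, 31 and 17 at day 7. Cybb, the catalytic subunit of the phagocyte oxidase, fell by 4.01 (SE 0.20) and Lgals3 by 3.26. Spp1, osteopontin, was at 3.61, 1.67 and 3.55 CPM at day 1 and at 1.36, 2.02 and 1.35 CPM at day 7, and its difference was not called (adjusted p = 0.41). ATV:RSV replicate 2 alone had 18.8 CPM of Spp1.

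Apoe had the largest rise among the 33 tested disease-associated genes, of which 7 rose and 22 fell. It stood at 571, 340 and 304 CPM at day 1 and at 1167, 1106 and 1197 CPM at day 7, where ATV:RSV had 503, 553 and 509 CPM. The day 7 mice were above both other groups without overlap, by 1.57 (SE 0.17, adjusted p = 7.87e-07) over day 1 and 1.15 (SE 0.17, adjusted p = 0.000693) over ATV:RSV. An Apoe UMI was found in 36.2% ± 10.9 of thinned day 1 cells, 63.5% ± 1.17 of thinned day 7 cells and 45.3% ± 1.68 of thinned ATV:RSV cells. Fabp5, a fatty acid binding protein, rose in CPM (per cell not called) from 3.81 ± 0.704 to 6.41 ± 0.637 CPM, with ATV:RSV at 3.76 ± 0.567 CPM. The cholesterol exporters Abca1 and Abcg1 rose by 0.44 and 0.51 in CPM and were at the ATV:RSV level. Among all 22 tested genes of lipid efflux and storage, 7 rose and 8 fell, where 33.0% and 33.9% of all genes did, with a median of -0.13 that became 0.02 with library size alone. Per cell 1 rose and 14 fell, with a median of -0.59, where 1274 and 7741 of all 14260 genes did.

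MHC class I genes fell in part. Of 23 class I and peptide loading genes 14 fell and 3 rose in CPM (median -0.35, beside 33.9% and 33.0% of all genes). The count of risers was 1 with edgeR, 1 with DESeq2 and 0 to 4 when any 1 mouse was left out. Per cell 18 fell and none rose (median -0.81), beside 7741 and 1274 of all 14260 genes. At day 7, 12 were above ATV:RSV, beside 2.99% of all genes (8 to 12 when any 1 mouse was left out, and 7 per cell). H2-K1, a classical class I heavy chain, was at 985, 851 and 884 CPM at day 1 and at 648, 718 and 769 CPM at day 7. It fell by 0.35 (SE 0.09) and was 0.71 above ATV:RSV (507, 383 and 420 CPM). H2-D1, the other classical heavy chain, was at 833, 675 and 742 CPM at day 1 and at 859, 961 and 1027 CPM at day 7. The call of its rise of 0.34 (SE 0.12) was lost per cell (-0.12, limma-voom adjusted p = 0.505) and in at least 1 fit with a single mouse left out. H2-Q7 was at 53.2, 34.1 and 38.4 CPM at day 1 and at 38.9, 58.6 and 57.7 CPM at day 7, with overlap (log2 difference 0.31, 95% interval -0.24 to 0.85). It was 2.02 above ATV:RSV, where replicate 1 had 25.2 CPM and the others 6.8 and 10.7 CPM, and 2.57 above without replicate 1. H2-Q6 rose by 0.67 and was 2.23 above ATV:RSV, but its rise was not called by edgeR, DESeq2 or per cell, nor without day 1 replicate 2 or day 7 replicate 2 or 3. H2-Q6 (chr17:35424850-35430055, mm10) and H2-Q7 (chr17:35439155-35443773) are near-identical neighbours, so how reads were shared between them is uncertain. Nlrc5, the activator of class I genes, fell by 1.82 (SE 0.16) and was 1.19 above ATV:RSV, a call lost without ATV:RSV replicate 2 or day 7 replicate 3. The loading chaperones Calr and Pdia3 fell by 1.56 and 1.27, to the ATV:RSV level.

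Class II genes went both ways, with 4 of 9 higher and 5 lower at day 7, beside 33.0% and 33.9% of all genes. Cd74, the invariant chain, fell from 255, 201 and 237 CPM to 40.2, 48.5 and 39.1 CPM (2.44, SE 0.13). The alpha chain gene H2-Aa and the beta chain genes H2-Ab1 and H2-Eb1 fell by 1.21, 0.87 and 0.94. The chaperones H2-DMb2, H2-Oa and H2-Ob rose by 1.07, 1.36 and 0.92, and were higher per cell as well. H2-Oa, a negative regulator of peptide loading, was at 28.6, 25.7 and 28 CPM at day 1 and at 73.5, 68.6 and 69.2 CPM at day 7. It was above its ATV:RSV level of 43.1 ± 1.06 CPM (log2 difference 0.71, SE 0.06, limma-voom adjusted p = 3.24e-06). It was the 1 member of 9 called there, where 2.99% of all genes were called higher and 0.996% lower.

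Homeostatic genes rose. With TMM scaling 21 of 26 were higher at day 7 and 2 lower (median 0.47 on the log2 scale, where 33.0% of all genes were higher). Per cell 9 were higher and 7 lower (median 0.01), where 1274 of all 14260 genes were higher and 7741 lower (median -0.44). P2ry12, the purinergic receptor that guides microglial processes, was at 883, 788 and 812 CPM at day 1 and at 1766, 1851 and 1658 CPM at day 7. It rose by 1.09 (SE 0.05), also per cell (0.62), and lay below the ATV:RSV mice at 2073, 2050 and 2032 CPM (log2 difference -0.22, adjusted p = 0.017, lost without ATV:RSV replicate 1 or 2 or day 7 replicate 3). Adtrp rose by 3.17 (SE 0.28), from 24, 21 and 21 UMIs to 118, 92 and 213 UMIs, and Upk1b, a uroplakin, from 16.7, 17.4 and 15.2 CPM to 48.9, 50.7 and 41.4 CPM. Cx3cr1, the fractalkine receptor, and Csf1r, the survival receptor of microglia, each rose by 0.47 in CPM and by 0.01 and 0.00 per cell. Tmem119 rose by 0.19 (limma-voom adjusted p = 0.031) in CPM and was at -0.28 per cell. Olfml3 fell by 0.32. Against ATV:RSV 24 of 26 were near the control (64.4% of all genes), and 6 were lower (0.996% of all genes), with 2 to 4 when any 1 mouse was left out and 14 with library size alone.

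Regulators of microglial identity mostly rose in CPM. Of 22 transcription factors 17 rose and 3 fell (median 0.57, beside 33.0% and 33.9% of all genes). Per cell 7 were higher and 8 lower (median 0.10), where 1274 and 7741 of all 14260 genes were. Cebpa, a myeloid factor, was at 147, 150 and 121 CPM at day 1 and at 462, 361 and 458 CPM at day 7 (1.61, SE 0.13), with ATV:RSV at 408, 317 and 403 CPM. Rxra, a nuclear receptor partner, rose by 0.99, and Sall1 by 0.64. Bhlhe40 and Bhlhe41 fell by 1.44 and 0.60 and Spi1 by 0.20. Immediate early genes, which answer stimuli within minutes and are also induced by tissue dissociation, rose in 14 of 19 cases (median 0.60), while per cell 4 were higher and 4 lower (median 0.13). Jund rose from 1723, 1903 and 1625 CPM to 3406, 3373 and 3532 CPM and Egr2 by 1.49 (SE 0.22). The heat shock genes Hspa1a and Hspa1b, at -1.07 and -0.85, were not called. At day 7, 19 of 22 transcription factors and 11 of 19 immediate early genes were near the control, where 64.4% of all genes were. Of the immediate early genes 1 was called lower than in ATV:RSV (0.996% of all genes), with 0 to 1 when any 1 mouse was left out. It was Jun (-0.25), named here after its value was seen. Against ATV:RSV limma-voom called no transcription factor, where it called 2.99% of all genes higher and 0.996% lower. At an unadjusted p under 0.05, 1 was higher and 6 lower, edgeR called 1 lower, and DESeq2 1 in each direction. With the batch as a block 2 were called lower. Library size alone gave 6 lower and none higher (median -0.16), where 882 of all 14260 genes were lower.

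The target of the antibody changed by little. Trem2 was at 2495, 2266 and 2387 CPM at day 1 and at 2605, 2633 and 2606 CPM at day 7, with 2519, 2550 and 2801 CPM in ATV:RSV. Its rise of 0.14 (SE 0.05, adjusted p = 0.0205) was a fall of 0.33 per cell. It was lost without day 1 replicate 2 or day 7 replicate 2, and without the cells with a Mki67 or Top2a UMI (0.08). Tyrobp fell by 0.20 (SE 0.05) and was 0.17 above ATV:RSV (adjusted p = 0.056, and 0.025 with the batch as a block). Syk went from 44.7, 42.1 and 41.6 CPM to 89.8, 79.9 and 73.1 CPM (0.91, SE 0.09), among the ATV:RSV mice at 90.3, 83.1 and 74.8 CPM. Malt1, a signalling scaffold, rose by 0.88, and the phosphoinositide phosphatase Inpp5d by 0.62, while the adaptor Lat2 fell by 1.28. Of 23 tested members of the pathway 9 rose and 12 fell, where 33.0% and 33.9% of all genes did. Per cell 3 rose and 15 fell, where 1274 and 7741 of all 14260 genes did. Near the control were 22 members, where 64.4% of all genes were.

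Tfrc, the receptor that the vehicle binds, was at 24.8, 26.3 and 25.6 CPM at day 1 and at 5.97, 6.59 and 5.29 CPM at day 7. It fell by 2.12 (SE 0.08) and lay above the ATV:RSV mice at 4.44, 4.1 and 4.75 CPM without overlap (log2 difference 0.40, adjusted p = 0.051, and 0.033 with the batch as a block). The Tfrc gene is modified in these mice, and all groups carry the same allele. Among 14 tested iron genes 6 rose and 7 fell, where 33.0% and 33.9% of all genes did. Per cell 2 rose and 8 fell, where 1274 and 7741 of all 14260 genes did. The iron exporter Slc40a1 rose by 0.98 (SE 0.08) and Ncoa4, which brings ferritin to lysosomes, by 0.74, whereas the ferritin heavy chain Fth1 fell from 7357, 7395 and 7908 CPM to 4577, 4180 and 4555 CPM and was still 0.33 above ATV:RSV.

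Some genes went past the ATV:RSV level. Of the genes higher at day 7 than in both other groups, those named by size were Chst2, Lag3, Apoe, Kcnj9, Zfas1 and Igfbp4, and their calls held in every setting tried. Kcnj9, a potassium channel subunit, had the largest rise among called genes with at least 10 UMIs in each mouse, no overlap and no predicted gene symbol. It went from 35, 16 and 18 UMIs to 335, 244 and 432 UMIs (log2 4.45, SE 0.30), with 213, 173 and 150 UMIs in ATV:RSV. Lag3, an inhibitory receptor, went from 217, 153 and 159 CPM to 542, 549 and 610 CPM, and ATV:RSV had 297, 234 and 274 CPM. Chst2, a sulfotransferase, went from 3.79 ± 0.804 to 10.3 ± 0.589 CPM, with ATV:RSV at 3.94 ± 0.388 CPM. Igfbp4, which binds insulin-like growth factors, rose by 0.93 and was 1.20 above ATV:RSV. The other large risers were Fn3k, Frat2, Mycl, Adtrp and Tcp11l2, by 3.12 to 3.43, of which Mycl, Adtrp, Fn3k and Tcp11l2 were not called against ATV:RSV.

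Others went below it. Lyzl4, a lysozyme relative, fell from 12.3, 9.92 and 12.5 CPM to 2.1, 2.61 and 2.75 CPM, where ATV:RSV had 6.5, 6.8 and 7.71 CPM (log2 difference -1.48, SE 0.17, adjusted p = 5.68e-05). Ccnd1, cyclin D1, fell from 270, 283 and 318 CPM to 69.8, 83.9 and 61.2 CPM, below ATV:RSV at 124, 132 and 119 CPM (-0.82, adjusted p = 0.011, lost without ATV:RSV replicate 2 or day 7 replicate 3). Myc fell by 0.78 and was 0.63 below ATV:RSV, a call that was lost without most single mice. Egfl7, Stox2 and Pacsin1 were lower than both groups by 0.67 to 1.46, with calls against ATV:RSV that were likewise lost without single mice.

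A last set was called against ATV:RSV at both days and not called between them, which does not show that the days were equal. Called higher at both days were Ccl5, Cfb, H2-Q7, C3, Lox and Il1b. Ccl5 was lower in every day 7 mouse than in every day 1 mouse, and its interval between the days, given above, was wide. The C3 call against ATV:RSV was lost without ATV:RSV replicate 2 or 3 or day 7 replicate 3. That of Ccl5, whose day 7 and ATV:RSV mice overlapped, was not made by edgeR and was lost without any 1 mouse but ATV:RSV replicate 1. Cfb and C3, complement proteins of the alternative pathway, had 36, 21 and 45 and 47, 36 and 70 UMIs at day 7, and their log2 differences from day 1 were -0.04 (95% interval -0.60 to 0.51) and -0.23 (-0.82 to 0.35). Lox, which crosslinks collagen, differed by -0.38 (-0.89 to 0.12) and was called lower per cell, at -0.83. Lower at both days were Slc17a7, Zfp112, Gadd45g, Rdh12, Mmp15 and Rnase10. The Slc17a7 call against ATV:RSV was lost without any 1 mouse but ATV:RSV replicate 3, that of Rdh12 without ATV:RSV replicate 1 or 3 or day 7 replicate 2 or 3, and that of Rnase10 without ATV:RSV replicate 2 or day 7 replicate 1. Gadd45g, a stress response gene, was at 24.6, 28.3 and 29 CPM at day 1 and at 20.4, 27 and 20.9 CPM at day 7, well below ATV:RSV at 44.2, 46 and 43.1 CPM. Its difference between the days was -0.28 (95% interval -0.59 to 0.03), and per cell it was called, at -0.74. Slc17a7 is a neuronal transporter and 1 of the 7 neuron markers, whose sum, Slc17a7 included, was 10.2 to 13.9 CPM in ATV:RSV, 5.13 to 7.04 CPM at day 1 and 7.03 to 7.95 CPM at day 7. The part of neuronal RNA in the Slc17a7 result was not tested.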

How the data were processed

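Single cells were sequenced with a droplet 3′ kit. Per the labels and methods, the authors made UMI counts with Cell Ranger 4.0.0 on mm10 (another place names a different version) and deposited 1 matrix of 32372 genes by 102043 cells with a cell table naming the mouse of each cell, UMI counts and genes per cell, and the percent of mitochondrial UMIs, which the authors computed. The deposited cells had at least 500 genes, 667 to 24995 UMIs and at most 10.0% mitochondrial UMIs. How doublets were treated is not given in the sources used here, and none were removed here. Shares of cells with a UMI are printed with each cell thinned to 3385 UMIs, and shallower cells were left out of them.

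UMIs were summed per mouse over all its cells. limma 3.58.1 (voom, TMM factors from edgeR 4.0.16, R 4.3.3) fitted group means to all 15 mice, 3 in each of 5 groups, over the 14260 genes kept by filterByExpr (count minimum 10, total minimum 15), and p-values were adjusted by Benjamini-Hochberg over them, with calls at 0.05. edgeR's quasi-likelihood test and DESeq2 1.42.0 were alternatives, beside other scalings, filters, weights, leaving out each mouse and leaving out cells with a Mki67 or Top2a UMI or with markers of another cell type. Values "per cell" come from the fit with the number of cells as the offset. They carry any difference in sequencing depth or RNA capture between libraries, which was not tested. Per-mouse values were compared by exact permutation in scipy 1.17.1. The limma-voom and edgeR fits were also run on simulated counts with known changes, as a check of the code alone. P-values set a difference between groups against the spread between mice, which includes the spread between their libraries. Replicate copies were looked for and none were found.

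Per the labels each replicate number is a batch with all 5 groups, so batches pair mice. Same-batch deviations from the group means correlated at a mean of 0.054 over 30 pairs (-0.22 to 0.26), against -0.027 over 60 pairs of other batches, and between day 1 and day 7 at 0.11 over 3 same-batch pairs (0.052 to 0.15), against -0.053 over 6 pairs of other batches. A 16th animal that the labels mention was not analysed here.

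The lists, markers and comparisons were chosen with earlier results of these data known. Genes were named by rule. These were 16 fixed genes (Trem2, Tyrobp, Syk, Tfrc, Apoe, Axl, Lpl, Cst7, Spp1, P2ry12, Tmem119, Cx3cr1, Csf1r, Mki67, Isg15 and Cd74), the 6 largest called rises and falls with at least 10 UMIs in each mouse and no overlap, and up to 2 rises and 2 falls per list. Added to them were up to 6 genes per direction past both other groups, and up to 6 per direction called against ATV:RSV at both days and not called between them. All other named genes were chosen after their values were seen. Promoter sequences are from RefSeq on GRCm38.p6, and gene positions from GENCODE, which matched 14080 of the tested symbols.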

Additional observations from a re-analysis of the deposited data

How the results depend on the processing

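For the genes higher at day 7 than in ATV:RSV the counts were 159 with the number of cells as the offset and 269 to 383 when any 1 mouse was left out. The mice that lowered it most were ATV:RSV replicate 2 (269) and day 7 replicate 3 (274). For the genes lower at day 7 they were 235 with DESeq2, 220 with sample quality weights, 882 with library size alone, and 60 to 106 when any 1 mouse was left out. Here the omission of day 7 replicate 3 gave 60, that of ATV:RSV replicate 2 gave 62 and that of day 7 replicate 2 gave 90. Against day 1 the number of cells as the offset gave 1274 higher and 7741 lower, and leaving out 1 mouse gave 4277 to 4454 higher and 4609 to 4839 lower. That offset does not set libraries to the same total. It turned the sign of 8 named genes from day 1 to day 7. Trem2 (-0.33), Tmem119 (-0.28), Hk1 (-0.25), Acadm (-0.25) and Atf4 (-0.21) were then called lower, while H2-D1 (-0.12, adjusted p = 0.505), Sesn2 (-0.14, adjusted p = 0.446) and Tgfb1 (-0.12, adjusted p = 0.162) were not called. The cause of the other changes was not tested.

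With the batch as a replicate block, 677 genes were higher and 337 lower than in ATV:RSV, and 4941 were higher and 5002 lower than at day 1. Paired by batch, the differences from day 1 were -3310.7 UMIs per cell (exact p = 0.25), -24 genes per thinned cell (exact p = 0.5) and -7.70 percentage points of Mki67 cells (exact p = 0.25), where 0.25 is the smallest p that 3 pairs can give.

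The lowest genes rest on few counts. The summed Mki67 count was 1 to 34 UMIs in the day 7 mice, below the 47 to 188 UMIs of the ATV:RSV mice, and the difference had a limma-voom adjusted p of 0.165 and an edgeR adjusted p of 0.032.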

Other observations

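In CPM 4 of 17 complement and Fc receptor genes rose and 8 fell between the days, where 33.0% and 33.9% of all genes did. Per cell 2 rose and 12 fell, where 1274 and 7741 of all 14260 genes did. At day 7, 3 were above ATV:RSV, where 2.99% of all genes were, with 1 to 3 when any 1 mouse was left out. The low-affinity IgG receptors Fcgr2b and Fcgr3 were at 62.7, 63.1 and 68.2 CPM and at 430, 378 and 508 CPM at day 1, and rose by 1.39 and 1.32 on the log2 scale, to 175, 161 and 171 CPM and to 1164, 1027 and 1071 CPM. Both were near the ATV:RSV level, with differences of 0.16 and 0.11. Fcgr4 went the other way, from 32.7, 32.8 and 37.8 CPM to 16.5, 17 and 18.4 CPM, and was still 0.80 above ATV:RSV. C5ar1, the receptor for the C5a fragment, fell from 248, 240 and 323 CPM to 71.5, 78.5 and 71.5 CPM. Among 13 tested Toll-like receptor genes 7 rose and 5 fell in CPM, beside 33.0% and 33.9% of all genes. Per cell 1 rose and 6 fell, beside 1274 and 7741 of all 14260 genes. Tlr2, which senses bacterial lipoproteins, fell by 1.37 to 109, 131 and 137 CPM and stayed above ATV:RSV (83.6, 77 and 78 CPM). Tlr5 and Tlr9 rose by 0.94 and 0.86.

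Of 31 lysosomal genes 10 rose and 14 fell in CPM, where 33.0% and 33.9% of all genes did. Per cell 2 rose and 25 fell, where 1274 and 7741 of all 14260 genes did. At day 7, 30 were near the ATV:RSV level and 8 were called above it, where 2.99% of all genes were, with 6 to 12 when any 1 mouse was left out and 1 per cell. Man2b1, a lysosomal mannosidase, rose from 381, 361 and 363 CPM to 637, 630 and 662 CPM and was 0.32 above ATV:RSV. Ctsz, a cathepsin, fell from 3948, 3961 and 4335 CPM to 1642, 1701 and 1862 CPM. Of 15 genes that recognise phosphatidylserine 6 rose and 6 fell in CPM, close to the shares of all genes in CPM. Per cell 1 rose and 8 fell, close to the shares of all genes per cell. Cd300a, an inhibitory receptor, rose by 1.17, and Cd36, a scavenger receptor, fell by 3.13. Cd300lf fell by 1.57 and was 1.27 above ATV:RSV. Csf3r, the receptor of granulocyte colony-stimulating factor, is 1 of the 6 neutrophil markers used here. It rose from 112, 109 and 104 CPM to 227, 225 and 228 CPM, with 188, 181 and 188 CPM in ATV:RSV. Its UMIs in the day 7 mice were 8006, 7234 and 11514, while at most 0.0263% of day 7 cells had 3 of these markers. Which cells carried Csf3r was not tested. The neutrophil granule genes S100a8, S100a9 and Ngp were not called between the days by limma-voom.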
